A study of Rattus norvegicus with 40 samples.

Results

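Hepatocyte identity transcription factors were followed in the liver of rats given the carcinogen diethylnitrosamine (DEN). They were taken as the count-file genes with the symbols Hnf4a, Foxa1, Foxa2, Foxa3, Cebpa, Cebpb, Onecut1 and Prox1, all 8 of which were among the 17337 genes counted and all 8 of which passed the filter on low counts in every comparison. Male Fischer 344 rats were injected in the peritoneum once a week with 50 mg/kg DEN from the age of 7 weeks. Livers were taken after 8 weeks of injections, after 14 weeks, or after 14 weeks followed by 6 weeks without DEN, here called 20 weeks. Untreated rats of the same age (no DEN) gave control liver at each time. At 8 weeks the DEN-treated rats gave non-tumoral (NT) liver, and at 14 and 20 weeks they gave NT liver and 2 tumor nodules each, so that 40 libraries came from 24 rats with 4 rats in each of 8 groups. All tissue was bulk liver or whole nodule, in which fewer hepatocytes and less of a transcript per hepatocyte cannot be told apart.

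These proteins bind the promoters and enhancers of genes that make a cell a hepatocyte, and they also act on the genes of each other. HNF4A is a nuclear receptor needed for most hepatocyte functions. The FOXA proteins are pioneer factors that open chromatin in the early liver. C/EBPα holds mature hepatocytes out of division and drives metabolic genes, whereas C/EBPβ responds to injury and acute phase signals. ONECUT1, also called HNF6, acts in early liver and bile duct development, and PROX1 is a homeobox factor needed for hepatoblast migration that also tempers the activity of HNF4A.

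The stretches of 250 bases before the annotated starts are shown for the members on which the results below turn most and which move with or against each other. RefSeq sequences of the rat build GRCr8 matched 5 of the 8 members, with 6 starts in all. Hnf4a has 2 starts that lie 35616 bases apart, and the second, downstream start is the one known from adult liver. The counts do not separate the starts. Capitals mark the letters of a motif on either strand.
Hnf4a, first start, chr3:172605970-172606219, plus strand: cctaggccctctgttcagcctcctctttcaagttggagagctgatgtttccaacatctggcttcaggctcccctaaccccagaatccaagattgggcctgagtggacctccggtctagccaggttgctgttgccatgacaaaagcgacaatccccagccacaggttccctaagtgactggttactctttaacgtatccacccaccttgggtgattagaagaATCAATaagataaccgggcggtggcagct
Hnf4a, second start, chr3:172641586-172641835, plus strand: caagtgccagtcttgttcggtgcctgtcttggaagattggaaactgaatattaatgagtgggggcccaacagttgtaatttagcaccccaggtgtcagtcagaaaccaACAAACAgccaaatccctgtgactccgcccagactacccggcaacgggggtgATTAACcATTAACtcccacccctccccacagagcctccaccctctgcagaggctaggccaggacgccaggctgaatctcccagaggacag
Foxa2, chr3:155927509-155927758, minus strand: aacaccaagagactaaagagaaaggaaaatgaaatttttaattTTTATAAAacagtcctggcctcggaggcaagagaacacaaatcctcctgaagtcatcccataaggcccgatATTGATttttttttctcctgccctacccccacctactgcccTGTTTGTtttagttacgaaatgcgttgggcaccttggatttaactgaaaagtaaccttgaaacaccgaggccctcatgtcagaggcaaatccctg
Cebpa, chr1:96896334-96896583, plus strand: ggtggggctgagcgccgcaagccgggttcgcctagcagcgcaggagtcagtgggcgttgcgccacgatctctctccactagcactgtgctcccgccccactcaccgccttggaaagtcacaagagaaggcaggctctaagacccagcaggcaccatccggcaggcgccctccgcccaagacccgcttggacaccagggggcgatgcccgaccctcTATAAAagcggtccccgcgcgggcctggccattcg

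Both strands were searched for GTTAAT (HNF1), TGTTTAC and the variant TGTTTGC as well as TGTTTGT (all for FOXA), ATTGAT (ONECUT), CAAAGTCCA (HNF4), TTGCNNAA (C/EBP) and TATAAA (the core promoter box bound by TBP). The second Hnf4a start had GTTAAT on the minus strand at 90 to 85 and again at 83 to 78 bases before the start, and TGTTTGT on the minus strand at 142 to 136 bases. The first Hnf4a start had ATTGAT on the minus strand at 29 to 24 bases. Foxa2 had TGTTTGT at 95 to 89 and ATTGAT at 136 to 131 bases, both on the plus strand, and TATAAA on both strands in letters that overlap. Cebpa had TATAAA alone, at 35 to 30 bases. Among 33469 promoters of that length, 6.45% held GTTAAT, 5.64% TGTTTGT, 7.10% ATTGAT and 12.9% TATAAA. The motifs without a match in the 4 windows above were held by 3.215% (TGTTTAC), 4.16% (TGTTTGC), 0.338% (CAAAGTCCA) and 9.22% (TTGCNNAA) of promoters. These matches are letters in a window and were not tested as binding sites.

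Levels are given as CPM, the read pairs of a gene scaled to a common total per library, after TMM scaling, which makes the bulk of genes comparable between libraries. Counted pairs per library ranged from 20528515 to 39355849, apart from 160622633 in NT liver of 1 rat at 20 weeks (H26), and the members had between 28 and 64396 counts per rat and tissue. Groups were compared by the quasi-likelihood test of edgeR with Benjamini-Hochberg adjustment over all genes tested, a gene was called at an adjusted p of at most 0.05, and fold changes are on the log2 scale with their standard error (SE). The samples held liver: the 10 hepatocyte markers, among them albumin, summed to 258113 to 297777 CPM in no DEN liver, and none of these markers was at 0. That sum was 211350 to 267541 CPM in NT liver at 8 weeks, 156262 to 206860 at 14 weeks and 197959 to 266924 at 20 weeks, and 136730 to 165770 and 125440 to 198030 CPM in nodules at 14 and 20 weeks. Stellate cell and fibroblast markers moved the other way, from a sum of 160 to 238 CPM in no DEN liver to 225 to 477 CPM in the groups with DEN. Of the 7 measured (Col1a2 was at 0 in every library), 5 were higher and Pdgfrb lower in nodules at 20 weeks. Cholangiocyte markers summed to 23.1 to 36.9 CPM in no DEN liver and 45.4 to 190 CPM with DEN, and proliferation markers to 16.7 to 35.3 against 27.5 to 230 CPM. Endothelial markers summed to 65.2 to 148 CPM in no DEN liver and 166 to 226 CPM with DEN, without overlap. The 5 genes listed as lymphatic endothelial markers summed to 53.8 to 84.6 against 88.6 to 157 CPM, also without overlap. That sum was mostly Lyve1 and Reln, with means of 29.8 and 30.4 of 67.6 CPM in no DEN liver at 14 weeks, so it is not a measure of lymphatic vessels alone. Lymphocyte markers summed to 9.84 to 21.6 against 18.4 to 39.6 CPM and macrophage markers to 305 to 941 against 347 to 909 CPM. The part of these shifts in the results below was not tested. The share of pairs outside annotated exons was also higher in DEN groups, with group means of 23.5% to 26.2% against 22.4% to 22.6%.

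Several of these factors were less abundant after DEN, and none was called higher. In NT liver 2 of the 8 (Hnf4a and Cebpa) were lower than in no DEN liver at 8 weeks, 4 (with Foxa3 and Prox1) at 14 weeks and 3 (Hnf4a, Cebpa and Prox1) at 20 weeks. Over all genes tested the share called lower was 15.4%, 24.9% and 10.9% at these times, and the share called higher 19.8%, 29.4% and 16.7%. Nodules were lower than no DEN liver for 6 members at 14 weeks (Hnf4a, Foxa1, Foxa3, Cebpa, Onecut1 and Prox1) and for 5 at 20 weeks (Hnf4a, Foxa3, Cebpa, Cebpb and Prox1), where 23.3% and 24.4% of all genes were called lower and 27.4% and 28.2% higher. These directions hold with TMM scaling, and several flipped against 0 when libraries were scaled to hepatocyte markers, a scaling that also raises the median of all genes (values given further on). NT liver and nodules were compared with the same no DEN rats, so the tests are not independent of each other.

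Members without a call stayed at 6, 4 and 5 of 8 in NT liver at 8, 14 and 20 weeks and at 2 and 3 of 8 in nodules. The median log2 fold change of the 8 members was -0.15, -0.41 and -0.38 in NT liver and -0.82 and -0.61 in nodules, beside -0.0078, 0.020, 0.017, 0.0017 and 0.0070 over all genes tested. At the thresholds of the study for NT liver, read here as a log2 change of at least 1 with an adjusted p up to 0.01, no member passed with edgeR at any time, whereas 4, 4 and 3 had an unadjusted p of at most 0.05, as had 4941 of 10812, 6600 of 11016 and 4355 of 10827 genes. At the same thresholds 0.620%, 2.10% and 0.333% of all genes were lower. At those for tumors, whose fold limit was read here as 0.5 on the log2 scale (adjusted p of at most 0.05), 6 members passed at 14 weeks and 4 at 20 weeks, where 15.2% of all genes were lower at either time.

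**Figure D1:**
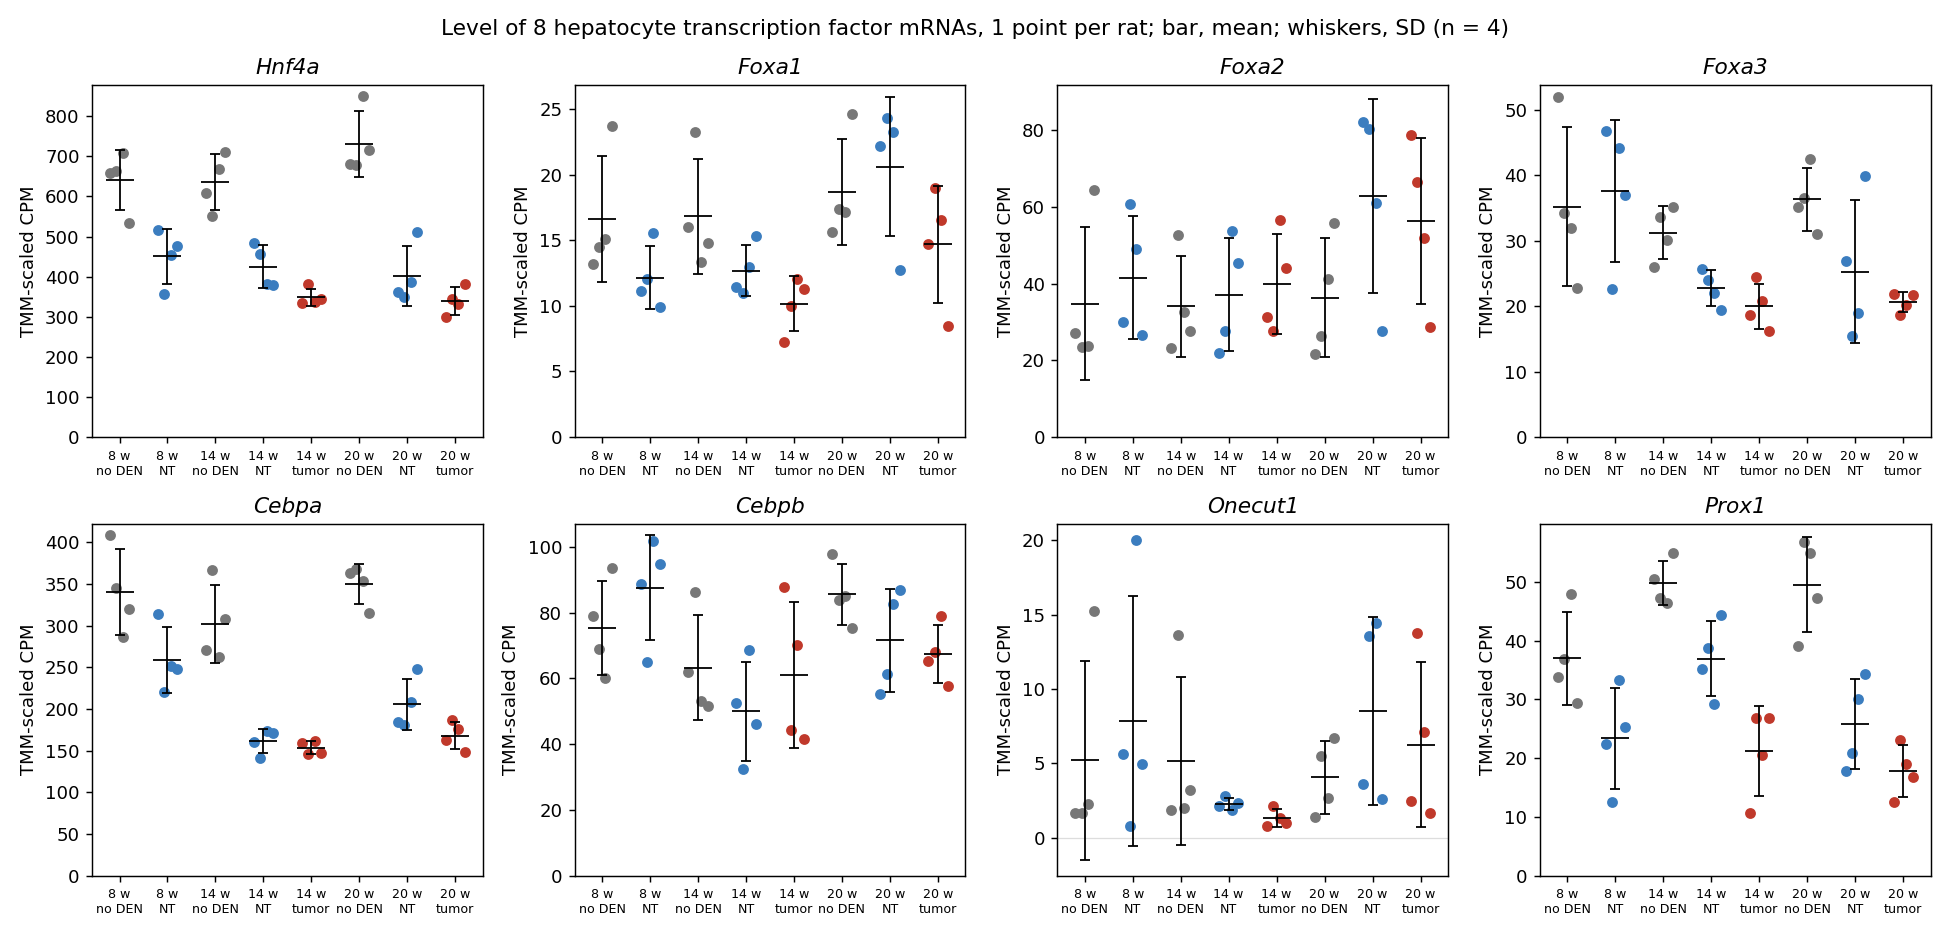
Level of each factor in TMM-scaled CPM (vertical axes, linear) in 8 groups by week, treatment and tissue, with 1 point per rat (counts of the 2 nodules of a rat added), the mean as a bar and the SD as whiskers (n = 4). For Hnf4a the points of no DEN liver sit between 534 and 851 CPM and those of DEN-treated rats between 300.0 and 517 CPM, whereas for Foxa2 and Onecut1 rats of a group spread widely. With hepatocyte-marker scaling in place of TMM, the drop of Hnf4a at 14 weeks in NT liver turned in sign.

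Hnf4a separated treated from untreated rats with TMM scaling. At 8 weeks it was at 659, 663, 708 and 534 CPM in the 4 no DEN rats and at 517, 356, 454 and 477 CPM in NT liver. The groups did not overlap, although the lowest no DEN rat was close to the highest NT rat, and the log2 fold change was -0.51 (SE 0.12, adjusted p = 0.0097). At 14 weeks no DEN liver held 609, 552, 669 and 711 CPM and NT liver 483, 457, 382 and 379 CPM, again without overlap. Nodules of the same rats lay closer together, at 335, 381, 336 and 344 CPM. The log2 fold change at 14 weeks was -0.54 in NT liver (SE 0.11, adjusted p = 0.0019) and -0.88 in nodules (SE 0.10, adjusted p = 0.00015).

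After 6 weeks without DEN, Hnf4a remained lower. No DEN liver at 20 weeks held 681, 677, 851 and 716 CPM, the highest group mean of all (731 ± 81.5 CPM, SD, n = 4). NT liver held 361, 348, 386 and 512.5 CPM and nodules 300.0, 345, 331 and 383 CPM, so that neither overlapped with no DEN liver. The log2 fold change was -0.85 in NT liver (SE 0.14, adjusted p = 0.0019) and -1.14 in nodules (SE 0.13, adjusted p = 0.00012). In the order of group means only the step from the lowest no DEN group (14 weeks, 635 CPM) to the highest DEN group (NT at 8 weeks, 451 CPM) was free of overlap, and the other 6 pairs of neighbours overlapped. The call held in each of the 8 fits that left out 1 rat, in all of these 5 comparisons.

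Cebpa fell with Hnf4a in all 5 comparisons. At 8 weeks the no DEN rats held 409, 346, 286 and 320 CPM and NT liver 314, 221, 251 and 248 CPM, with an overlap of 1 rat on each side. The log2 fold change was -0.40 (SE 0.13, adjusted p = 0.036), and the call was lost in 6 of the 8 fits that left out 1 rat, with adjusted p up to 0.094. At 14 weeks the gap was wider. No DEN liver held 271, 366, 263 and 308 CPM, NT liver 160, 142, 173 and 171 CPM and nodules 159, 147, 161 and 148 CPM. NT liver and nodules thus lay in the same narrow range, both below all no DEN rats, with log2 fold changes of -0.87 (SE 0.11, adjusted p = 0.00013) and -0.99 (SE 0.12, adjusted p = 0.00016). At 20 weeks no DEN liver held 363, 368, 353 and 315 CPM, NT liver 185, 181, 208 and 248 CPM and nodules 162, 187, 176 and 148 CPM. The log2 fold changes were -0.76 (SE 0.11, adjusted p = 0.0013) and -1.08 (SE 0.11, adjusted p = 8.5e-05), again with no overlap with no DEN liver.

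Cebpb, the injury-responsive member of the family, had no such drop. Its group means ran from 50.0 CPM (NT, 14 weeks) to 87.6 CPM (NT, 8 weeks), every neighbouring pair of groups overlapped, and single rats ranged from 32.5 to 102 CPM. It was called lower once, in nodules at 20 weeks. There the rats held 65.2, 68.0, 79.0 and 57.6 CPM against 97.9, 84.0, 85.2 and 75.3 CPM in no DEN liver. The groups overlapped, the log2 fold change was -0.37 (SE 0.12, adjusted p = 0.021), and the call was lost in 3 of 8 fits that left out 1 rat, without the rats numbered F (adjusted p = 0.054) and in the fit with all 8 groups (adjusted p = 0.18). It was also lost with the first nodule alone (log2 fold change -0.13, adjusted p = 0.42) and with each nodule as its own value (adjusted p = 0.11). In the other 4 comparisons its log2 fold change lay between -0.30 and 0.21 without a call.

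Among the FOXA factors, Foxa3 was lower in NT liver at 14 weeks and in nodules at both times. At 8 weeks it was at 51.9, 34.2, 31.9 and 22.8 CPM in no DEN liver and 46.7, 22.6, 44.2 and 36.9 CPM in NT liver, and these ranges were nearly the same (log2 fold change 0.09, SE 0.28, adjusted p = 0.82). At 14 weeks no DEN liver held 26.1, 33.6, 30.1 and 35.2 CPM, NT liver 25.6, 24.02, 21.995 and 19.4 CPM and nodules 18.6, 24.4, 20.7 and 16.2 CPM. Both lay under the lowest no DEN rat, with NT liver only just so. The log2 fold changes were -0.42 (SE 0.11, adjusted p = 0.0095) and -0.66 (SE 0.14, adjusted p = 0.0045). In the fit with all 8 groups NT liver was not called (adjusted p = 0.12). At 20 weeks nodules held 21.9, 18.6, 20.1 and 21.8 CPM against 35.1, 36.6, 42.6 and 31.0 CPM (log2 fold change -0.85, SE 0.11, adjusted p = 0.00021). NT liver at 20 weeks was spread over 26.9, 15.4, 18.9 and 39.9 CPM and was not called (log2 fold change -0.51, SE 0.29, adjusted p = 0.23). Without rat H28, the highest of the 4, its log2 fold change was -0.83 with an adjusted p of 0.014.

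Foxa1 was called lower in nodules at 14 weeks alone. Those nodules held 7.27, 10.03, 12.1 and 11.3 CPM against 16.01, 23.2, 13.4 and 14.8 CPM in no DEN liver, with no overlap (log2 fold change -0.75, SE 0.20, adjusted p = 0.013). Its group mean was highest in NT liver at 20 weeks (20.6 ± 5.30 CPM, SD, n = 4) and lowest in the nodules at 14 weeks (10.2 ± 2.10 CPM), and all 7 pairs of neighbouring groups overlapped. In NT liver its log2 fold change was -0.46, -0.37 and 0.15 at 8, 14 and 20 weeks, with adjusted p of 0.10, 0.10 and 0.62. The 20-week nodules were at -0.38 (adjusted p = 0.20).

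Prox1 showed the deepest drop of the members called in nodules at 20 weeks. No DEN liver at that time held 39.1, 56.8, 54.9 and 47.3 CPM, NT liver 17.9, 20.9, 30.1 and 34.3 CPM and nodules 12.5, 23.1, 19.03 and 16.7 CPM. Neither overlapped with no DEN liver, and the log2 fold changes were -0.93 (SE 0.21, adjusted p = 0.012) and -1.50 (SE 0.18, adjusted p = 0.00019). At 14 weeks the levels stepped down from no DEN liver (50.5, 47.3, 46.5 and 54.9 CPM) through NT liver (35.3, 38.8, 29.3 and 44.4 CPM) to nodules (10.7, 26.9, 20.6 and 26.8 CPM), and none of the 3 groups overlapped with another. The log2 fold change was -0.39 in NT liver (SE 0.11, adjusted p = 0.012) and -1.25 in nodules (SE 0.25, adjusted p = 0.0030). In the fit with all 8 groups NT liver was not called (adjusted p = 0.17). At 8 weeks no DEN liver held 33.8, 36.9, 48.001 and 29.4 CPM and NT liver 22.5, 12.6, 33.3 and 25.2 CPM. That difference was not called (log2 fold change -0.67, SE 0.27, adjusted p = 0.081), but it was with DESeq2 (adjusted p = 0.024).

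Foxa2 and Onecut1 varied more between rats of a group than between groups. Foxa2 was at 27.3, 23.6, 23.9 and 64.6 CPM in no DEN rats at 8 weeks, at 23.4, 52.8, 32.5 and 27.6 CPM at 14 weeks and at 21.8, 26.3, 41.3 and 55.9 CPM at 20 weeks. NT liver held 30.0, 60.8, 49.0 and 26.7 CPM at 8 weeks, 21.9, 27.7, 53.6 and 45.4 CPM at 14 weeks and 82.3, 80.5, 61.0 and 27.7 CPM at 20 weeks. Each group thus had both low and high rats, and all 7 pairs of neighbouring groups overlapped. The 5 log2 fold changes to no DEN liver lay between 0.16 and 0.79 with SE of 0.29 to 0.41, and none was called (adjusted p of 0.16 to 0.73). The largest was in NT liver at 20 weeks, where 3 of 4 rats exceeded the highest no DEN rat of 20 weeks (55.9 CPM) and 2 of 4 the highest of all no DEN rats (64.6 CPM, at 8 weeks). Without that 8-week rat (H08) the log2 fold change of NT liver at 8 weeks was 0.73 (adjusted p = 0.063).

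Onecut1 was scarce, with 0.817 to 20.0 CPM over all rats, and had the widest spread. No DEN rats held 1.64, 1.68, 2.29 and 15.3 CPM at 8 weeks, 1.88, 13.6, 1.99 and 3.18 CPM at 14 weeks and 1.36, 5.50, 2.66 and 6.67 CPM at 20 weeks. NT liver held 5.62, 0.817, 20.0 and 4.96 CPM, then 2.11, 2.81, 1.84 and 2.36 CPM, then 3.60, 13.5, 14.5 and 2.59 CPM at these times. The 14-week DEN groups were the ones without a high rat. Nodules at 14 weeks, at 0.819, 2.13, 1.33 and 0.966 CPM, were called lower than no DEN liver (log2 fold change -1.98, SE 0.66, adjusted p = 0.033) although the groups overlapped. That call rested on single rats: without no DEN rat H10 (13.6 CPM) the log2 fold change was -0.87 with an adjusted p of 0.094, and it was lost in 4 of 8 such fits. It was also lost in the fit with all 8 groups (adjusted p = 0.0504), without the F rat (adjusted p = 0.12) and with the first nodule alone (adjusted p = 0.081). Nodules at 20 weeks held 2.49, 13.7, 7.12 and 1.66 CPM and were not called (log2 fold change 0.60, SE 0.66, adjusted p = 0.47).

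**Figure D2:**
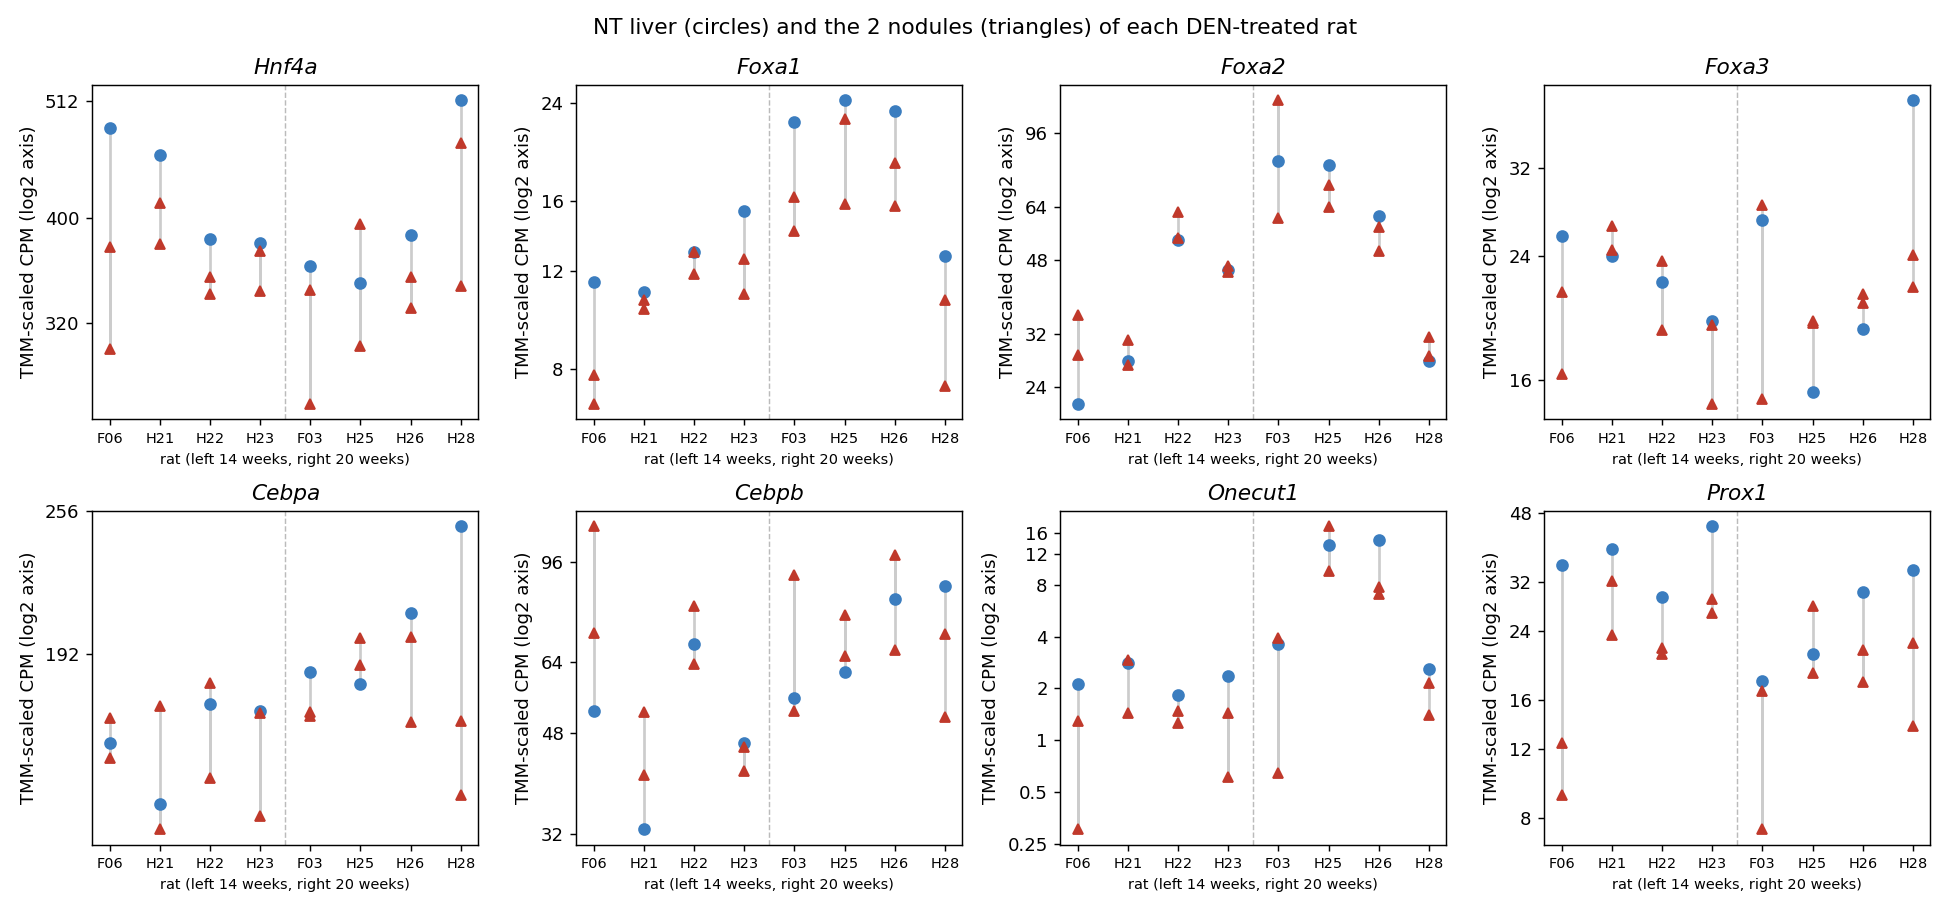
Level of each factor in the NT liver (circles) and in each of the 2 nodules (triangles) of the 8 rats with nodules, in TMM-scaled CPM on a log2 axis, 14-week rats left and 20-week rats right of the dashed line. For Foxa2 the NT liver and nodules of a rat sit together while rats differ, from 21.9 to 82.3 CPM in NT liver, whereas for Prox1 the nodules sit mostly under NT liver.

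Nodules were next compared with the NT liver of the same rats. With TMM scaling and no pairing, edgeR called 0 genes at either time (1348 of 11466 at 14 weeks and 2767 of 11546 at 20 weeks had an unadjusted p of at most 0.05, and DESeq2 called 60 and 1119), so the share called was 0% and no member was called. Unadjusted, 3 members were at or under 0.05 at 14 weeks and 2 at 20 weeks, in edgeR. Hnf4a and Foxa1 were lower in the nodules than in the NT liver of all 8 rats, and Onecut1 and Prox1 in those of all 4 rats at 14 weeks and 3 of 4 at 20 weeks. The Hnf4a difference at 14 weeks was -0.53, -0.26, -0.19 and -0.14 on the log2 scale in rats F06, H21, H22 and H23, and at 20 weeks -0.27, -0.015, -0.22 and -0.42 in rats F03, H25, H26 and H28. Its log2 fold change was -0.31 (adjusted p = 0.40) and -0.27 (adjusted p = 0.28) at these times. Prox1 at 14 weeks was the one member whose 2 tissues did not overlap, and the share of all genes without overlap was not counted. Its level in nodules dropped by 1.72, 0.53, 0.50 and 0.73 on the log2 scale in F06, H21, H22 and H23. Its log2 fold change was -0.83 (SE 0.27, adjusted p = 0.40). Rat F06 had the largest nodule drop at 14 weeks for Prox1, Hnf4a, Foxa1, Foxa3 and Onecut1, and its nodules held 34.5% and 28.2% of pairs outside annotated exons, where the other 14-week nodules held at most 25.5%. Its first nodule was also the library with the fewest counted pairs (20528515). The part of this in the result was not tested. Without F06 the log2 fold change between nodules and NT liver at 14 weeks was -0.61 for Prox1 (adjusted p = 0.21) and -0.21 for Hnf4a (adjusted p = 0.34). Against no DEN liver, without the F06 nodules, 5 members were called at 14 weeks and Onecut1 was not, with Prox1 at -1.003 and Hnf4a at -0.84.

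Taking the rat as a block changed the calls at 20 weeks. Foxa1 was lower in the nodules of each rat there, with 14.8, 18.999, 16.5 and 8.48 CPM against 22.2, 24.3, 23.2 and 12.8 CPM in the NT liver of rats F03, H25, H26 and H28. Its log2 fold change was -0.52 (SE 0.27, adjusted p = 0.26) without the pairing and -0.53 (SE 0.082, adjusted p = 0.00054) with it. Onecut1 was lower in 3 of the 4 rats and passed only with the pairing, at a log2 fold change of -0.56 (SE 0.16, adjusted p = 0.024). With the block 3378 of 11546 genes were called at 20 weeks and 0 at 14 weeks. The 2 of 8 members called at 20 weeks were thus no larger a share than that of all genes. Scaled to hepatocyte markers instead, the unpaired differences at 20 weeks of Hnf4a, Foxa2, Foxa3, Cebpa and Cebpb turned positive, without a call.

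The deviation of a rat from its group mean was shared between its tissues for some factors and not for others. Over the 8 rats with nodules, deviations of log2 CPM in NT liver and nodules from their group means had a Pearson r of 0.96 for Foxa2, 0.90 for Onecut1, 0.88 for Foxa1, 0.63 for Hnf4a, 0.51 for Cebpb, 0.48 for Foxa3, 0.29 for Prox1 and -0.46 for Cebpa. The points share the rat and 4 rats share each group mean. Foxa2 shows the pattern in single rats: F06, H21, H22 and H23 had 21.9, 27.7, 53.6 and 45.4 CPM in NT liver and 31.2, 27.8, 56.6 and 44.1 CPM in nodules. At 20 weeks F03, H25, H26 and H28 had 82.3, 80.5, 61.0 and 27.7 CPM in NT liver and 78.8, 66.5, 51.8 and 28.6 CPM in nodules.

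Nodules of the same rat differed by at most 2.26-fold for 7 of the 8 factors. The median difference between the 2 nodules, in log2 units and without sign, was 0.19 for Foxa2, 0.20 for Foxa1, 0.22 for Hnf4a, 0.23 for Cebpa, 0.24 for Foxa3, 0.43 for Cebpb, 0.45 for Prox1 and 0.95 for Onecut1. The nodules of rat F03 (20 weeks) differed most for Foxa2, Foxa3, Cebpb, Onecut1 and Prox1. Its first nodule held 115 CPM of Foxa2 and 91.1 CPM of Cebpb, above the 60.3 and 52.5 CPM of the second. The first nodule was lower in Foxa3 (15.0 against 28.3 CPM), Prox1 (7.48 against 16.9 CPM) and Onecut1 (0.649 against 3.93 CPM, a 6.06-fold difference). Hnf4a, at 270 and 343 CPM, differed by 1.27-fold between them. The first F03 nodule was also the library with the largest share of pairs without a unique place (16.3%, against 10.3% in the second). The part of this in the differences was not tested. With 1 library per nodule these differences have no replicate.

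The mean sum of the 10 hepatocyte markers was lower with DEN, so the factors were also compared after scaling libraries to these markers. Genes for several of these markers are known targets of the same factors. This scaling moved the median log2 fold change of all genes tested to 0.18, 0.66 and 0.28 in NT liver at 8, 14 and 20 weeks and to 0.84 and 0.77 in nodules at 14 and 20 weeks. It shifts all genes of a library alike, so a change of sign against 0 leaves the place of a gene among the others nearly as it was. Hnf4a, Cebpa and Prox1 stood below the shifted median in all 5 comparisons, which the scaling largely fixes and which is no second support. Hnf4a stood at -0.31, 0.09 and -0.59 in NT liver and -0.04 and -0.36 in nodules, called at 20 weeks in NT liver alone (adjusted p = 0.013). Cebpa stood at -0.21, -0.22, -0.50, -0.15 and -0.34 in the same order, and it too was called in NT liver at 20 weeks alone (adjusted p = 0.022).

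Prox1 stood at -0.46, 0.24 and -0.65 in NT liver and -0.39 and -0.75 in nodules after this scaling, and its call in nodules at 20 weeks remained (adjusted p = 0.0062). Foxa3 changed sign at 14 weeks, to 0.22 in NT liver and 0.19 in nodules, and Foxa1 in nodules of both times, to 0.11 and 0.34. None of these was called. Foxa2, already positive with TMM, was called higher than no DEN liver in nodules at 14 and 20 weeks, with log2 fold changes of 1.06 and 1.29 (adjusted p of 0.0070 and 0.00070). Cebpb was called higher in nodules at 14 weeks (0.76, adjusted p = 0.014). Against the shifted median of all genes (0.84 and 0.77), Foxa2 stood above it in nodules at both times and Cebpb at 14 weeks below it.

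**Figure D3:**
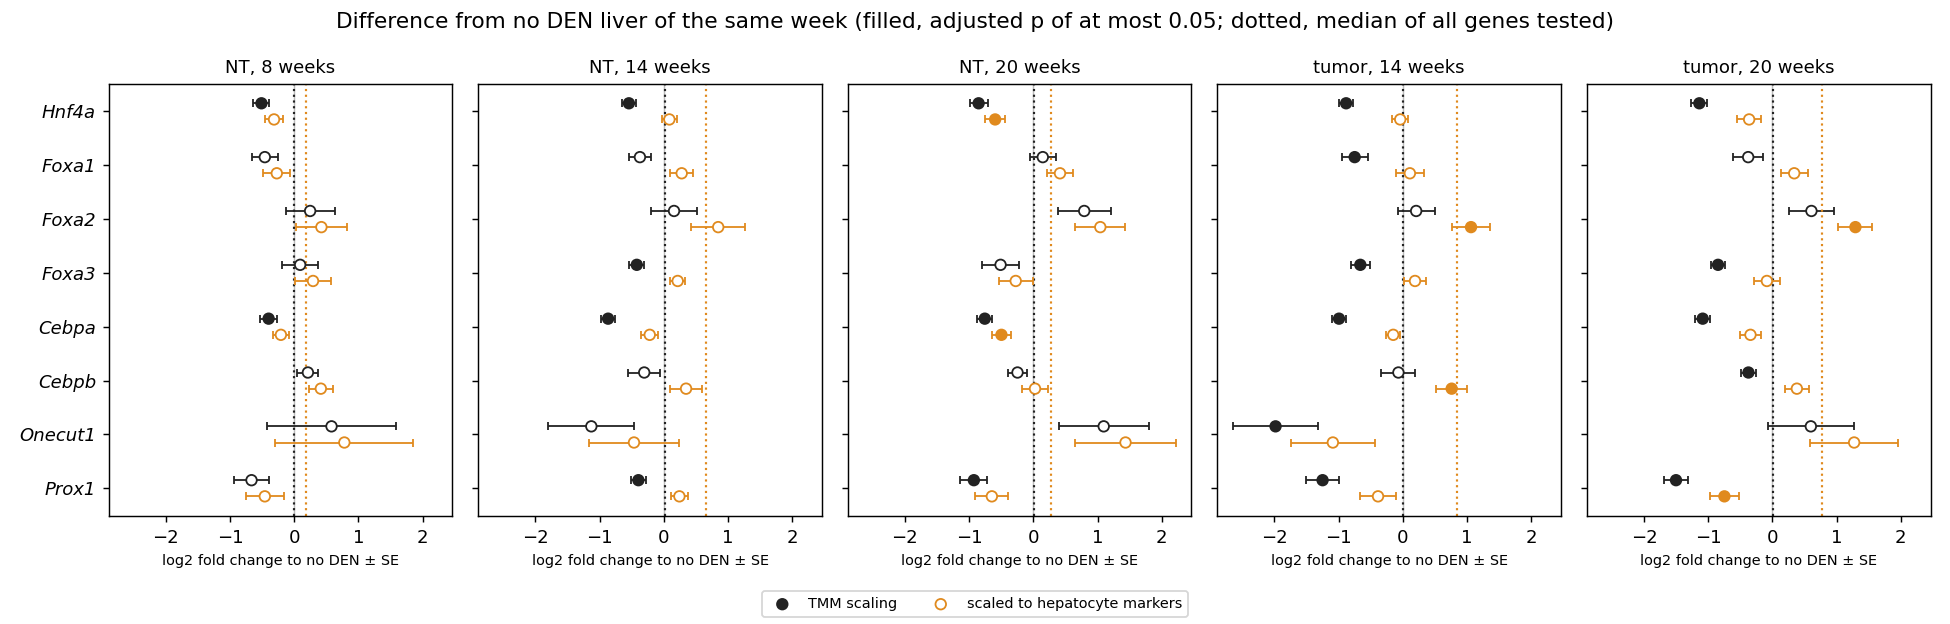
Log2 fold change of each factor to no DEN liver of the same week with its SE (horizontal axis), with TMM scaling in black and with libraries scaled to 10 hepatocyte markers in orange; filled points have an adjusted p of at most 0.05 and dotted lines mark the median of all genes tested. With TMM, Hnf4a and Cebpa sit left of 0 with filled points in all 5 panels, while the marker scaling flips the sign of Hnf4a, Foxa1, Foxa3, Cebpb and Prox1 in NT liver at 14 weeks.

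No interaction of treatment and time was called for a member. The difference of the NT effect between 8 and 14 weeks, between 14 and 20 weeks, and of the nodule effect between 14 and 20 weeks was called for 0 of 8 members with edgeR and with DESeq2, while 8.96%, 0.738% and 0.0862% of all genes were called by edgeR. Unadjusted, 1, 0 and 1 members were at or under 0.05, as were 2980 of 11219, 1912 of 11245 and 378 of 11607 genes. The difference between the effects at 20 and 8 weeks was not tested. Among no DEN rats, edgeR called 0% of genes and no member between 8 and 14 or 14 and 20 weeks (1038 and 670 genes unadjusted, 31 and 39 with DESeq2, and 1 and 3 members unadjusted). Without 1 no DEN rat of 8 weeks (H07), 1 member and 166 genes were called between 14 and 8 weeks.

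Members also varied with each other. Over 32 values (24 rats, nodules of a rat added, so that 8 rats give a pair of tissues), deviations of log2 CPM from group means had a Pearson r of 0.81 for Foxa1 with Foxa2 and 0.71 for Foxa1 with Onecut1. Hnf4a went with Foxa3 (0.69) and against Foxa2 (-0.72), and Cebpa went with Cebpb (0.61). Hnf4a and Cebpa had an r of 0.85 over all values but of 0.18 within groups, so they shared the difference between groups and little of that between rats.

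The widest gap in Foxa2 levels on the log2 scale, noticed after the values were seen, lay between 32.5 and 41.3 CPM, with 16 of 32 values on each side and both sides in all 8 groups. All 8 rats with nodules had NT liver and nodules on the same side. Among 10067 genes with a mean of at least 1 CPM, those most like Foxa2 were Cish (r = 0.96 over the 32 log2 values), Rgs3 (0.91) and Hhex (0.86). Cish encodes a cytokine-induced inhibitor of the SOCS family, Rgs3 a regulator of G protein signalling and Hhex a homeobox factor of the early liver. Whether the values form 2 clusters was not tested, and r was also taken on each side of the gap. Cish lay at 6.89 to 56.3 CPM with high Foxa2 (r = 0.87, n = 16) and at 0.516 to 3.56 CPM with low Foxa2 (r = 0.52, n = 16). For Rgs3 the r was 0.82 and 0.33 on these sides and for Hhex 0.77 and -0.32. The low side spans a narrower range of Foxa2, and the sides were set on the Foxa2 values themselves, so these r are a description.

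The genes most like the other members were named by the same rule. For Hnf4a they were Irs3, Nsdhl and Slc25a44 (r of 0.93 for each), which fell to 0.50, 0.48 and 0.53 within groups. For Cebpa they were Ripk4 (0.96), Cd164 (0.94) and Prkaca (0.93), and 0.70, 0.37 and 0.40 within groups. Prox1 was most like C1galt1 (0.94), Ern1 (0.94) and Zfp281 (0.93), which kept 0.86, 0.85 and 0.91 within groups. Foxa1 was most like Rad54l2 (0.89), Ccdc117 and Arhgap29 (0.84 for each), Foxa3 like Sgk1 (0.83), Sgk2 and Dnajb5 (0.82 for each), and Onecut1 like Slc25a30 (0.84), Tmx4 (0.82) and Birc2 (0.80). Cebpb had the least similar neighbours, Trim8 (0.74), Ppp1r15b (0.73) and Rtp3 (0.71).

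**Figure D4:**
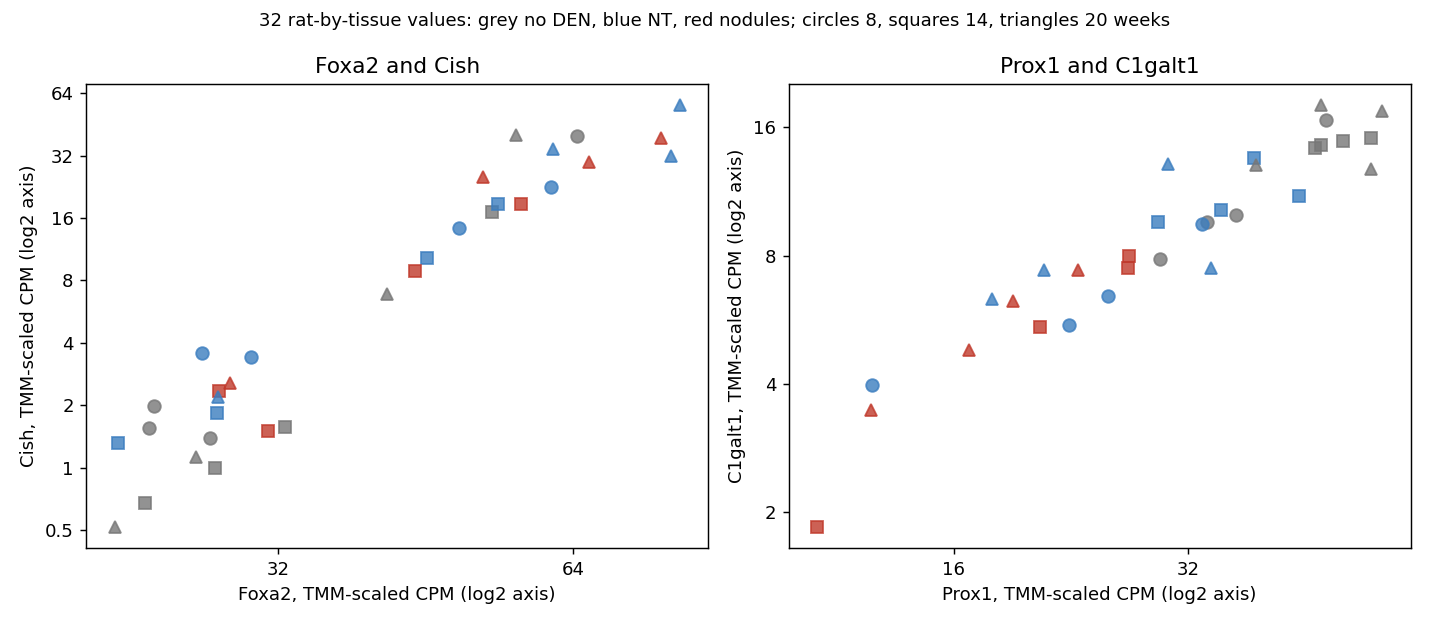
Foxa2 against Cish (left) and Prox1 against C1galt1 (right), each point 1 of 32 rat-by-tissue values in TMM-scaled CPM on log2 axes, coloured by no DEN, NT and nodule and shaped by week. Values on either side of the Foxa2 gap come from every group, with Cish up to 3.56 CPM on the low side and from 6.89 CPM on the high side; Prox1 and C1galt1 form 1 band with no DEN liver at its upper end and nodules at its lower end.

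Among other hepatocyte transcription factors, more were called lower than higher with TMM scaling, and in NT liver most were not called. Of 20 tested, 7, 9 and 8 were lower in NT liver at 8, 14 and 20 weeks and 12 and 15 in nodules at 14 and 20 weeks, and 1, 0, 0, 1 and 1 were higher. Over all genes tested 15.4%, 24.9%, 10.9%, 23.3% and 24.4% were called lower in the same order, and 19.8%, 29.4%, 16.7%, 27.4% and 28.2% higher. Their median log2 fold change was -0.45, -0.19, -0.28, -0.82 and -0.70. Rxra, the partner of many nuclear receptors, was at 31.8 against 117 CPM in nodules at 14 weeks (log2 fold change -1.90, SE 0.49, adjusted p = 0.011) and at 39.2 against 102 CPM at 20 weeks (-1.41, SE 0.25, adjusted p = 0.0013). Atf5, a stress-responsive leucine zipper factor abundant in liver, was at 143 against 482 CPM in nodules at 14 weeks (-1.77, SE 0.11, adjusted p = 7.1e-06). Tbx3, a T-box factor of the early liver, was at 1.57 against 9.26 CPM in nodules at 20 weeks (-2.59, SE 0.23, adjusted p = 3.7e-05). Nr5a2, a nuclear receptor of bile acid synthesis, was at 10.4 against 21.7 CPM there (-1.08, SE 0.13, adjusted p = 0.00015). Gata4, a zinc finger factor, was the one called higher in nodules, by 0.24 and 0.33 at 14 and 20 weeks (adjusted p of 0.047 and 0.021).

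Genes known to be driven by these factors in hepatocytes were called lower more often than higher in each comparison, with TMM scaling. Of 20 tested, 12, 12 and 10 were lower in NT liver at 8, 14 and 20 weeks and 14 and 18 in nodules, with 1 higher in each comparison. The shares of all genes called lower were 15.4%, 24.9%, 10.9%, 23.3% and 24.4% in the same order, and those called higher 19.8%, 29.4%, 16.7%, 27.4% and 28.2%. Their median log2 fold change was -0.36, -0.71, -0.43, -0.997 and -1.12. Slco1b2, a bile acid and drug uptake transporter, was at 235 against 892 CPM in nodules at 14 weeks (log2 fold change -1.94, SE 0.13, adjusted p = 1.1e-05). Cyp8b1, which makes cholic acid, was at 175 against 578 CPM there (-1.74, SE 0.21, adjusted p = 0.00018), and Cyp7a1, the rate-limiting enzyme of bile acid synthesis, was at 14.2 against 66.1 CPM at 20 weeks (-2.26, SE 0.37, adjusted p = 0.00088). Apoa1, the main protein of high-density lipoprotein and itself a known HNF4A target, went the other way, from 1729 to 4387 CPM in nodules at 20 weeks (1.31, SE 0.16, adjusted p = 0.00017).

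**Figure D5:**
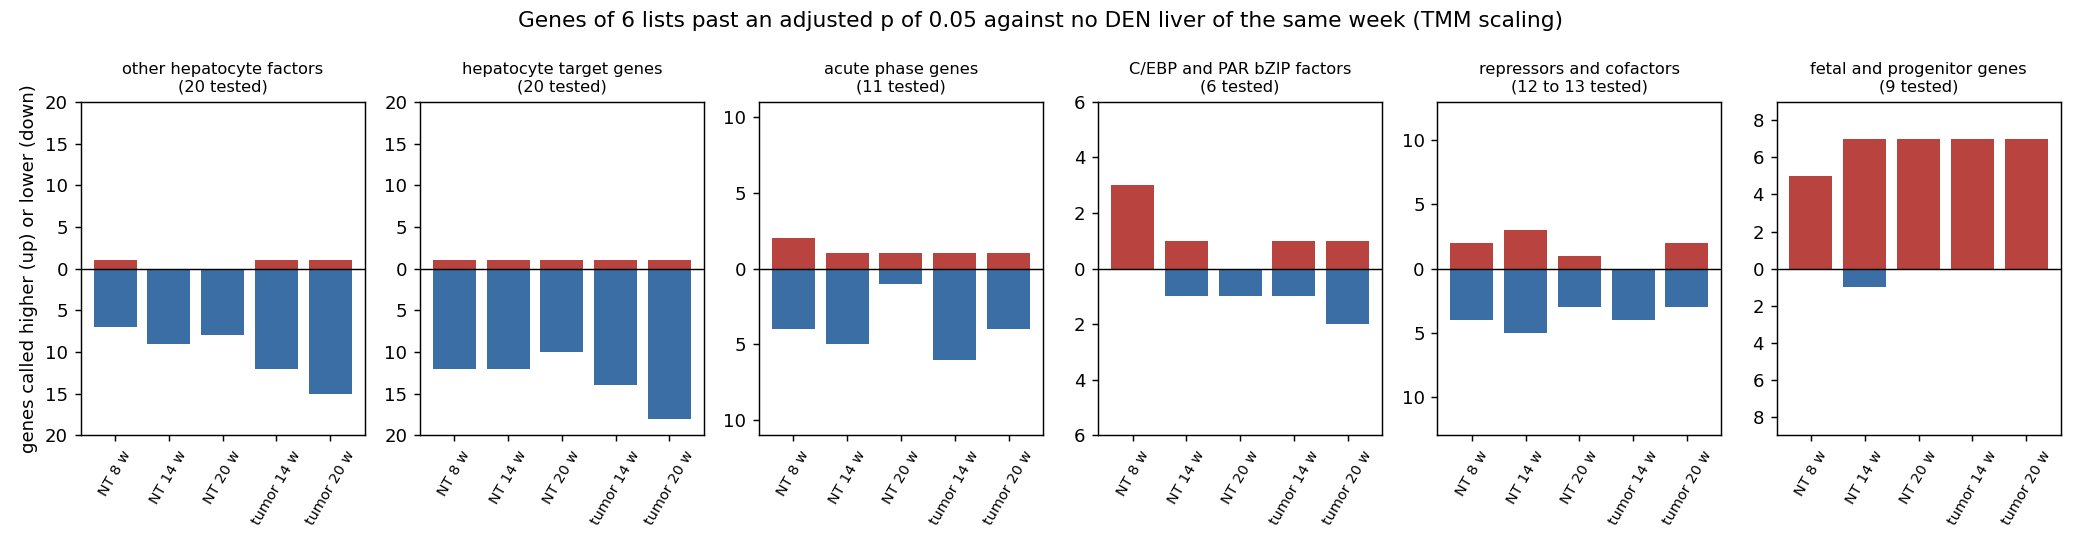
Number of genes called higher (upward bars) and lower (downward bars) than no DEN liver of the same week in 6 gene lists, at an adjusted p of at most 0.05 with TMM scaling. Downward bars reach 15 of 20 other hepatocyte factors and 18 of 20 target genes in nodules at 20 weeks, and upward bars 7 of 9 fetal and progenitor genes from 14 weeks on.

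Among relatives of the members and their modulators, some genes were called lower and some higher in nodules. Of 6 further C/EBP and PAR leucine zipper factors tested, Cebpd was higher in nodules at 14 and 20 weeks (0.96 and 0.53, SE 0.23 and 0.15, adjusted p of 0.0071 and 0.014) at 4.38 and 3.74 CPM, and Cebpg was lower (-0.70 and -0.58, SE 0.09 for each, adjusted p of 0.00027 and 0.00060). Of 13 repressors and cofactors, 4 were lower and 0 higher in nodules at 14 weeks by edgeR, and 3 lower and 2 higher at 20 weeks. Over all genes tested 23.3% and 24.4% were called lower at these times and 27.4% and 28.2% higher. The lower counts of this list were thus near the share of all genes. Snai2, a repressor known from cells that lose epithelial features, was lower at both times (-1.27 and -1.89), whereas Zeb2 and Snai1 were higher at 20 weeks (0.72 and 0.70). Acute phase genes, known to be driven by C/EBPβ, split: of 11 tested, 6 and 4 were lower and 1 higher in nodules at 14 and 20 weeks. Crp fell by 1.71 and 1.75 and Lbp rose by 1.53 and 1.89 on the log2 scale.

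Most of the genes listed for the fetal liver and progenitor cells were called higher with TMM scaling. Of 9 tested, 5, 7 and 7 were higher in NT liver at 8, 14 and 20 weeks and 7 in nodules at both times, with a median log2 fold change of 0.82, 3.12, 2.49, 3.48 and 3.78. Over all genes tested 19.8%, 29.4%, 16.7%, 27.4% and 28.2% were called higher in the same order. H19, a fetal noncoding RNA, was at 36.6 against 1.71 CPM in nodules at 20 weeks (4.35, SE 0.61, adjusted p = 0.00042). Sox9, a factor of bile duct and progenitor cells, was at 9.86 against 0.488 CPM (4.26, SE 0.36, adjusted p = 3.3e-05). Cholangiocyte markers were also higher there, with a mean sum of 144 against 27.1 CPM, and the part of this in the list was not tested. Igf2 was at 0.86 CPM in nodules at 14 weeks and at 0.80 CPM in no DEN liver of that week. Afp, the serum protein of the fetal liver, was not among the genes called higher, at 29.3 against 29.4 CPM in nodules at 20 weeks (-0.03, SE 0.17, adjusted p = 0.88). It was lower in NT liver at 14 weeks (-0.41, SE 0.08, adjusted p = 0.0010). Members and lists were chosen with earlier results of these data known, so these counts are a description beside the share of all genes called.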

How the data were processed

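RNA-seq of liver tissue was made in 40 libraries from 24 rats. The authors aligned the reads with STAR 2.7.1a to the rat build rn6 and counted pairs per gene with HTSeq, using exons, the reverse strand and intersection-strict mode and dropping pairs without a unique place; the annotation release is not given in the sources used here. The deposited values are raw counts per gene. Rows that name no gene were kept out of library sizes, and the row for pairs outside exons held 21.5% to 34.5% of pairs per library.

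The 2 nodules from each animal were summed, giving 32 values with 1 per rat and tissue. Levels of single nodules were scaled separately, over the 40 libraries. Genes were filtered with filterByExpr, scaled by TMM and tested with the quasi-likelihood test of edgeR 4.0.16 (robust, R 4.3.3) on the groups of each comparison, adjusted by Benjamini-Hochberg over all genes tested. The code was tested on simulated data with known changes. The authors' own tests used DESeq2 1.22.2; DESeq2 1.42.0 served here as an alternative. Rats are separate animals. NT liver and nodules come from the same rats: deviations from group means correlated with r of 0.39 to 0.65 within a rat, and the best match of the NT liver of 7 of 8 rats was its own nodules. The fit with the rat as a block was therefore run beside the main one. Other alternatives were scaling by size factors (RLE) or by 10 hepatocyte markers, no filter, 1 fit over all 8 groups, each nodule alone or as its own value, leaving out the rats numbered F, and leaving out each rat in turn.

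The members and lists were chosen with earlier results of these data known. All members are named; of each list those with the largest change in a comparison are named, and some others were named after their values were seen. Like genes are the 3 with the highest Pearson r of log2 CPM over the 32 values. Promoters are RefSeq sequences of GRCr8 and no coordinate of that build was applied to the counts. The fold limits of the study are given as fold changes in the paper; that for NT liver was taken as linear and that for tumors as log2, which is a choice. Levels were not compared between genes, since no transcript lengths were used.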

Additional observations from a re-analysis of the deposited data

Results flagged for a closer look

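A rat stood apart from the other 3 of its group in 3 of 64 gene-by-group sets examined, by the share of the range of the group that its gap took (Dixon's criterion at 95%). Chance alone marks about 1 in 20 such sets. In no DEN liver at 8 weeks rat H08 held 64.6 CPM of Foxa2, where the next rat held 27.3 CPM. The same rat held 15.3 CPM of Onecut1, with the next at 2.29 CPM. In no DEN liver at 14 weeks rat H10 held 13.6 CPM of Onecut1, with the next at 3.18 CPM. Both rats were untreated. Without H08 the log2 fold change of NT liver at 8 weeks was 0.73 for Foxa2 (adjusted p = 0.063) and 2.07 for Onecut1 (adjusted p = 0.096), against 0.25 and 0.58 with it, and none of these was called by edgeR. Without H10 that of Onecut1 in nodules at 14 weeks was -0.87 (adjusted p = 0.094), against -1.98 with it.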

How the results depend on the processing

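Of 20 member results called with edgeR and TMM, 313 alternative values were computed: 274 kept direction and call, 33 kept the direction without the call and 6 turned. Of 36 uncalled results, 485 of 519 alternative values stayed uncalled with the same sign, 11 passed the threshold and 23 turned. Of the called results, those lost on leaving out 1 rat were Cebpa in NT liver at 8 weeks, Cebpb in nodules at 20 weeks and Onecut1 in nodules at 14 weeks. The causes of the changes below were not tested.

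Scaling to hepatocyte markers called 0 members in NT liver at 8 and 14 weeks and 2 in nodules at 14 and at 20 weeks. In NT liver at 14 weeks it turned Hnf4a to 0.087, Foxa1 to 0.28, Foxa3 to 0.22, Cebpb to 0.35 and Prox1 to 0.24, and in NT liver at 20 weeks Cebpb to 0.027. In nodules against no DEN liver it turned Foxa1 to 0.11, Foxa3 to 0.19 and Cebpb to 0.76 at 14 weeks, and Foxa1 to 0.34 and Cebpb to 0.38 at 20 weeks. Between nodules and NT liver it turned Cebpa at 14 weeks to 0.070 and, at 20 weeks, Hnf4a to 0.27, Foxa2 to 0.30, Foxa3 to 0.23, Cebpa to 0.20 and Cebpb to 0.39. Of the genes called, 8954 of 9225 were then higher in NT liver at 14 weeks and 8895 of 9206 in nodules at 14 weeks, beside 3243 of 5989 and 3101 of 5739 with TMM. In NT liver at 8 and 20 weeks and nodules at 20 weeks they were 3230 of 3622, 3152 of 3350 and 8078 of 8391, beside 2145 of 3814, 1805 of 2986 and 3161 of 5897. It called 3814 genes between nodules and NT liver at 20 weeks, 1 between no DEN liver at 20 and 14 weeks, and 4142 and 231 genes in the NT interactions of 14 with 8 and 20 with 14 weeks.

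DESeq2 called 60 and 1119 genes between nodules and NT liver at 14 and 20 weeks, 31 and 39 between ages of no DEN rats, and 1529, 382 and 29 in the interactions. The fit over all 8 groups called 2 members in NT liver at 14 weeks (Hnf4a and Cebpa, without Foxa3 and Prox1), 1722 genes between nodules and NT liver at 20 weeks, 1 gene between no DEN rats of 14 and 8 weeks, and 151, 41 and 16 genes in the interactions. No filter on low counts gave 2 genes in each age comparison, and leaving out the F rats 182 genes in the NT interaction of 20 with 14 weeks. The replicate block (the rat) called 2 of 8 members and 3378 of 11546 genes at 20 weeks between nodules and NT liver and changed no call at 14 weeks. The first nodule alone turned Foxa2 to 0.0028 and Cebpb to 0.16 and called 239 genes there, and 5 in the nodule interaction. The second nodule alone turned Cebpa to 0.036 at 14 weeks, where each nodule as its own value called 1 gene.

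Leaving out each rat in turn gave 1 to 3 members in NT liver at 8 weeks, and a log2 fold change of -0.069 to 0.34 for Foxa3 and -0.48 to 2.07 for Onecut1 there. Foxa2 in NT liver at 14 weeks ranged from -0.073 to 0.45, Cebpb in nodules at 14 weeks from -0.28 to 0.11, and Onecut1 in nodules at 20 weeks from -0.15 to 0.96. Cebpb between nodules and NT liver at 20 weeks ranged from -0.20 to 0.082. Genes called ranged from 1872 to 3116 in NT liver at 20 weeks, from 0 to 451 between nodules and NT liver at 20 weeks, from 0 to 166 and 0 to 2 between ages of no DEN rats, and from 533 to 1870, 31 to 408 and 6 to 15 in the interactions; members called between no DEN rats of 14 and 8 weeks ranged from 0 to 1.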
